A study of Mus musculus with 12 samples.

Results

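Kainate and AMPA receptors are ion channels opened by glutamate, and their 9 subunit genes were followed here through intact, dissociated and magnetically sorted dorsal root ganglia (DRG). The members were taken by gene symbol, *Grik1* to *Grik5* for the kainate receptor and *Gria1* to *Gria4* for the AMPA receptor, and make up 9 of the 24490 genes in the expression table. All 9 were listed once. RNA was sequenced from 4 samples of each of 3 preparations of DRG from adult male C57Bl/6 mice. Intact ganglia were frozen directly, with 1 mouse per sample. Unsorted preparations were ganglia of 2 mice, digested with enzymes, triturated and filtered. MACS-sorted preparations were dissociated in the same way from 8 mice, labelled with antibodies against non-neuronal cells and passed over a magnetic column that held back the labelled cells. The labels name no transgene and no drug, and unsorted and MACS-sorted samples are pools of mice. Comparing MACS-sorted with unsorted DRG served to find what sets nociceptors, the sensory neurons that respond to harmful stimuli, apart.

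As background, a receptor of either family is a tetramer of subunits around a cation channel. The kainate subunits GluK1, GluK2 and GluK3, encoded by *Grik1*, *Grik2* and *Grik3*, can form channels on their own, whereas GluK4 and GluK5, encoded by *Grik4* and *Grik5*, bind glutamate with high affinity and form working channels only together with one of the others. Small DRG neurons are classically known for kainate currents carried by receptors that hold GluK1, and AMPA receptors carry most fast excitation from sensory neurons onto the spinal cord.

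The segment that shapes the channel pore is the most telling stretch of sequence in these genes, because a single codon in it, the Q/R site, helps to set how well calcium passes. In *Gria2*, *Grik1* and *Grik2* an adenosine of this codon is known to be edited in the RNA by the enzyme ADAR2, which turns the glutamine codon into one read as arginine. The 39 bases of coding sequence around that codon are shown for all 9 members, from the reference transcripts (GENCODE M21, GRCm38), with the codon itself in capitals.
Grik1: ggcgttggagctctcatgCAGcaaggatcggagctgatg
Grik2: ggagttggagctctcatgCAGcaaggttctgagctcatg
Grik3: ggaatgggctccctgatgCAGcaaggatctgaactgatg
Grik4: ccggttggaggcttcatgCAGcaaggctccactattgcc
Grik5: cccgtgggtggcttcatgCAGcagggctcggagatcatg
Gria1: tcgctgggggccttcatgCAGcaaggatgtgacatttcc
Gria2: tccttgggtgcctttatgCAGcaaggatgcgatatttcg
Gria3: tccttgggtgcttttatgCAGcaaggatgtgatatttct
Gria4: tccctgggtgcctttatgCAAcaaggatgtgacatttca

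In the reference, 8 of the 9 members spell this glutamine as CAG and *Gria4* alone spells it CAA. The AMPA windows were close to each other, with 3 to 7 differing bases in the 6 pairs and the fewest between *Gria2* and *Gria3*. The kainate windows were more spread, with 4 differing bases between *Grik1* and *Grik2* and up to 20 in the 10 pairs. Between the families, 12 to 18 bases differed. For *Grik1*, *Grik2* and *Grik3* the window crosses an exon junction. The codon known to be edited lies at chr3:80706911-80706913 in *Gria2*, chr16:87940542-87940544 in *Grik1* and chr10:49244329-49244331 in *Grik2*, each in coding sequence on the minus strand. Editing itself cannot be read from expression values, so what follows concerns the level of each transcript and not the base at this codon.

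Levels are given as FPKM (fragments per unit of transcript length and of library size), which allows genes of different length to be compared. An estimated 13600000 to 19200000 fragments lay behind each sample. Before the members are described, several values of the samples themselves matter. In MACS-sorted against unsorted DRG, 9 of 10 markers of small-diameter nociceptors rose and 0 fell, 7 of 7 markers of large-diameter neurons fell, and 6 of 6 markers of satellite glia, 6 of 7 of Schwann cells and 6 of 7 of fibroblasts fell (adjusted p under 0.05). Neuronal and glial markers were measured in all groups. The nociceptor list summed to 2581 to 2711 FPKM before and 3052 to 4238 FPKM after sorting. The large-diameter list summed to 832 to 1024 FPKM in unsorted samples and to 81.2 to 154 FPKM after sorting, that of satellite glia 2103 to 2654 and 89.1 to 189, that of Schwann cells 1908 to 3149 and 519 to 1200, and that of fibroblasts 187 to 408 and 14.1 to 57.7. The macrophage list summed to 7.61 to 16.04 FPKM before and 0.498 to 2.38 FPKM after sorting, where in MACS-sorted samples all 7 of its measured genes had a mean below 1 FPKM. None of the 6 endothelial markers passed in either direction, and their sum was 38.2 to 50.5 and 11.4 to 68.1 FPKM. Of 8 pan-neuronal markers, 3 rose and 2 fell, with sums of 4223 to 4554 and 3815 to 4902 FPKM. The 6 measured red blood cell markers all rose, with sums of 51.2 to 218 FPKM before and 1081 to 8937 FPKM after sorting. No measured marker of any of these lists was at 0 in every sample of a group.

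Some samples stood apart. Intact replicate 1 had a summed FPKM of 2745 over 6 skeletal muscle genes, against 15.6 to 62.9 in the other intact samples, and it was the lowest of the 4 intact samples for 9 of the 9 members. MACS-sorted replicate 4 had the highest red blood cell, Schwann cell and fibroblast sums of its group (8937, 1200 and 57.7 FPKM) and the lowest nociceptor sum (3052 FPKM). It was the lowest MACS-sorted sample for 3 of the 9 members. The share of all genes that were lowest in either of these samples was not counted, so neither count is read as a trait of the members. Unsorted replicates 1 and 2 were closer to each other than any other pair, with a variance of 1.82 times counting noise against 3.69 to 103 in the other 17 pairs, and were kept as 2 samples. Removing the red blood cell list and rescaling changed no call of a member in any comparison. In MACS-sorted against unsorted DRG it took the log2-fold change of *Grik1* from 1.19 to 1.22 and that of *Gria2* from −0.55 to −0.51 (adjusted p = 0.046). Averaging unsorted replicates 1 and 2 changed no call either. The part of these features in the results was not tested further, apart from the values without each sample given beside the members they touch.

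**Figure D1:**
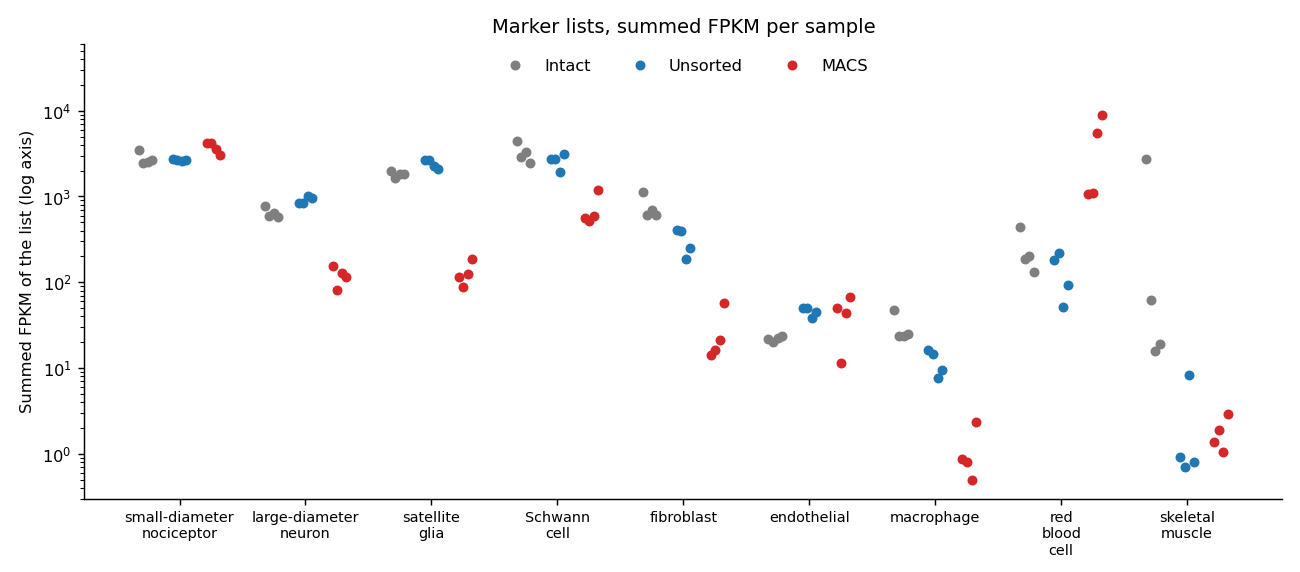
Summed FPKM (log axis) of each marker list in every sample, with grey for intact, blue for unsorted and red for MACS-sorted DRG. MACS-sorted samples lie below all others for large-diameter neurons, satellite glia, Schwann cells, fibroblasts and macrophages and above all others for red blood cells, and 1 intact sample reaches 2745 FPKM on the skeletal muscle list.

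Between MACS-sorted and unsorted DRG, 8 of the 9 subunit genes passed an adjusted p of 0.05 (limma, Benjamini-Hochberg over all genes tested). *Grik1*, *Grik4* and *Grik5* rose, while *Grik2*, *Grik3*, *Gria2*, *Gria3* and *Gria4* fell, and *Gria1* did not pass. All 5 kainate genes thus passed, in both directions, and the 3 AMPA genes that passed were lower. Among all 12038 genes tested, 46.5% passed, 18.8% upwards and 27.7% downwards, against 3 and 5 of the 9 members. The median log2-fold change was 0.31 over the kainate genes and −0.75 over the AMPA genes, beside −0.04 over all genes tested. The 8 genes that passed are also the 8 whose MACS-sorted and unsorted samples did not overlap, a separation seen in 46.2% of all genes tested (18.4% upwards and 27.8% downwards). In bulk RNA, fewer cells that express a gene and less of its RNA per cell cannot be told apart.

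Asking also for group means that differ by more than 0.5 on the log2 scale, the larger being over 5 FPKM, left *Grik1* as higher and *Gria2* and *Gria4* as lower, 3 of 9 members beside 20.7% of all genes (8.15% higher and 12.5% lower). Among genes that passed, 40.4% were higher in MACS-sorted samples as deposited and 59.3% after quantile normalization, which moved the median of all genes by 0.14. The direction of each of the 9 members was the same under every scaling tried.

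**Figure D2:**
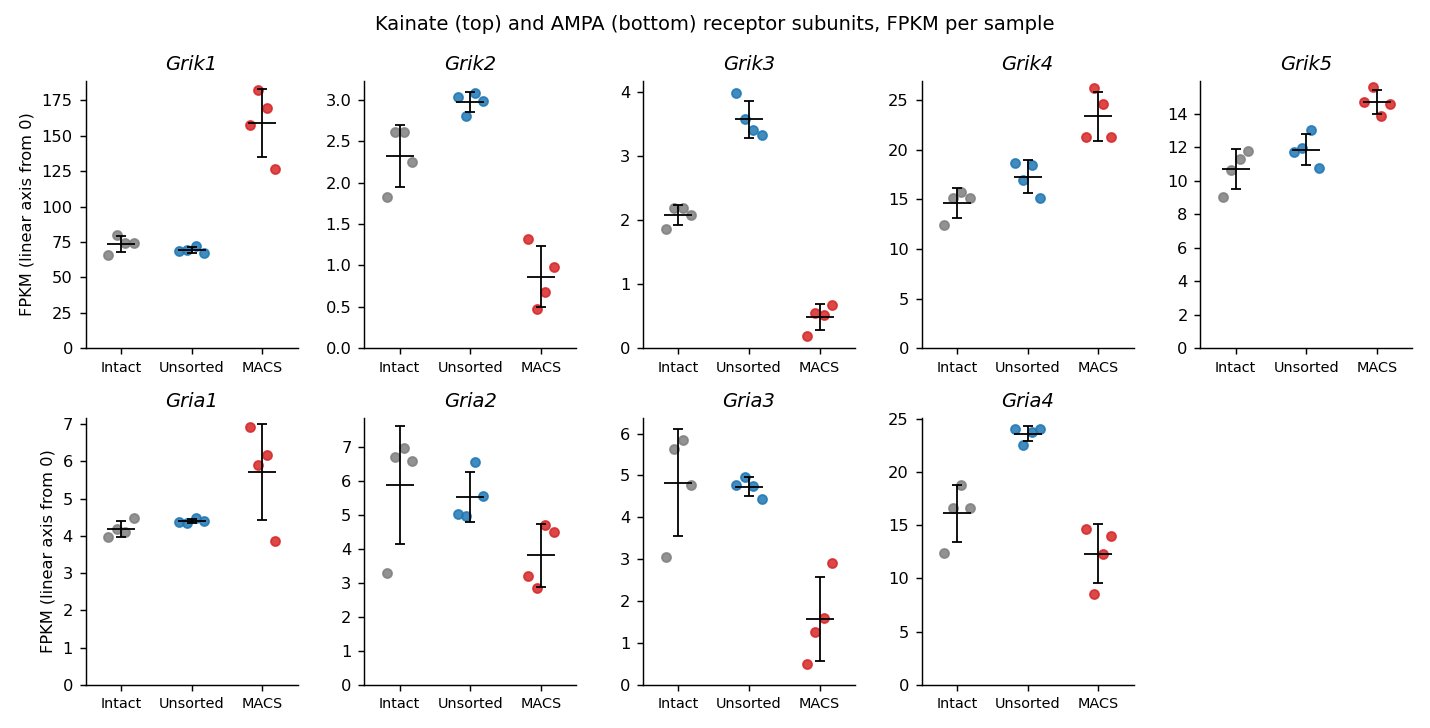
FPKM of each subunit gene (linear axes from 0, a scale for each gene) in the 4 samples of intact (grey), unsorted (blue) and MACS-sorted (red) DRG, with the group mean and SD in black. *Grik1* sits between 127 and 182 FPKM in MACS-sorted samples and at or below 79.7 elsewhere, while *Grik2*, *Grik3* and *Gria3* are lowest in MACS-sorted samples.

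*Grik1* encodes GluK1 and lies on chromosome 16 (mm10 chr16:87895897-88290258, minus strand), with its Q/R codon in exon 13 of 18 of the reference transcript. It measured 65.5, 79.7, 74.3 and 74.4 FPKM in intact replicates 1 to 4 and 68.5, 68.9, 72.3 and 67.4 FPKM in unsorted replicates 1 to 4. In MACS-sorted replicates 1 to 4 it measured 158, 182, 170 and 127 FPKM. Intact and unsorted samples overlapped, and every MACS-sorted sample was above all 8 of them, with replicate 4 the lowest. The group means were 73.5 ± 5.91, 69.3 ± 2.12 and 159 ± 23.8 FPKM (SD, n = 4 each). MACS-sorted samples held 2.29 times the unsorted mean, a log2-fold change of 1.19 (SE 0.105, adjusted p = 1.9e-05). Leaving out each sample in turn gave 1.12 to 1.29. It was the highest member in all 3 groups, and by mean FPKM it ranked 271 of 24490 genes in MACS-sorted DRG, against 760 in intact and 849 in unsorted DRG.

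*Grik2*, which encodes GluK2 (chr10:49099463-49788754, minus strand, Q/R codon in exon 12 of 16), differs from *Grik1* by 4 bases in the window above and went the other way. Its level was 1.83, 2.61, 2.61 and 2.25 FPKM in the intact samples and 3.03, 2.80, 3.08 and 2.99 FPKM in the unsorted samples. MACS-sorted samples held 1.32, 0.476, 0.679 and 0.981 FPKM. These 4 were all below every other sample. On average they held 0.290 times as much as the unsorted samples, a log2-fold change of −1.75 (SE 0.266, adjusted p = 0.00050). The size was −1.14 after quantile normalization and −1.11 with a pseudocount of 1. Per sample, *Grik1* FPKM was 22.5 to 24.6 times that of *Grik2* in unsorted, 28.5 to 35.9 times in intact and 120 to 383 times in MACS-sorted DRG.

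*Grik3*, the gene of GluK3 (chr4:125490831-125714173, plus strand, Q/R codon in exon 12 of 16), showed the largest difference of the 9. It stood at 1.86, 2.18, 2.19 and 2.07 FPKM in intact and 3.98, 3.58, 3.40 and 3.32 FPKM in unsorted samples. The MACS-sorted samples had 0.192, 0.548, 0.511 and 0.676 FPKM, so that the 3 groups separated completely. It fell by 2.74 on the log2 scale between unsorted and MACS-sorted DRG (SE 0.297, adjusted p = 6.1e-05), and its MACS-sorted mean was 0.135 times the unsorted mean. The change was −2.09 after quantile normalization and ran from −3.00 to −1.63 with pseudocounts of 0.01 and 1. Unsorted samples were in turn 1.72 times intact samples (log2-fold change 0.76, SE 0.100, adjusted p = 0.0027), a call lost when all 12 samples shared 1 fit (adjusted p = 0.065). In MACS-sorted samples *Grik3* had few reads per kilobase, an estimated 2.6 to 9.8 fragments, as did *Grik2* at 7.4 to 17.9. These are not totals of reads, because both genes are long. Their longest annotated transcripts have 8973 bases for *Grik3* and 9427 bases for *Grik2*.

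Both genes of high-affinity subunits rose. *Grik4*, encoding GluK4 (chr9:42520412-42944371, minus strand, Q/R codon in exon 14 of 19), measured 12.4, 15.1, 15.8 and 15.1 FPKM in intact and 18.7, 17.0, 18.5 and 15.1 FPKM in unsorted samples. In MACS-sorted samples it measured 21.3, 26.3, 24.6 and 21.3 FPKM, above all of the others. MACS-sorted samples held 1.35 times the unsorted mean (log2-fold change 0.43, SE 0.098, adjusted p = 0.0053). Against intact samples the ratio was 1.60 (log2-fold change 0.68, SE 0.113, adjusted p = 0.0014). Intact and unsorted samples overlapped, and their difference did not pass (log2-fold change 0.25, adjusted p = 0.11).

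*Grik5*, encoding GluK5 (chr7:25009851-25072369, minus strand, Q/R codon in exon 15 of 20), had 9.02, 10.6, 11.3 and 11.8 FPKM in intact and 11.7, 11.9, 13.0 and 10.8 FPKM in unsorted samples. MACS-sorted samples had 14.7, 15.6, 13.9 and 14.6 FPKM. The MACS-sorted samples were again above all 8 others, by a smaller margin than for *Grik4*. Its MACS-sorted mean was 1.24 times the unsorted mean (log2-fold change 0.31, SE 0.078, adjusted p = 0.0093). Under every alternative setting tried, *Grik1*, *Grik4* and *Grik5* remained higher with an adjusted p of at most 0.033 in this comparison.

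Among the AMPA genes, *Gria4*, the gene of GluA4 (chr9:4417893-4796234, minus strand, Q/R codon in exon 12 of 17), was the most abundant in all 3 groups. It measured 12.4, 16.6, 18.8 and 16.7 FPKM in intact and 24.0, 22.6, 23.8 and 24.1 FPKM in unsorted samples. The MACS-sorted samples held 14.6, 8.49, 12.3 and 14.0 FPKM. Unsorted samples were above all others, and intact and MACS-sorted samples overlapped. The mean was 0.522 times the unsorted mean after sorting (log2-fold change −0.96, SE 0.151, adjusted p = 0.00063). Between unsorted and intact samples the ratio was 1.46 (log2-fold change 0.56, SE 0.117, adjusted p = 0.012). MACS-sorted against intact DRG did not pass (−0.40, adjusted p = 0.13), although it did without intact replicate 1 (−0.52, adjusted p = 0.049).

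*Gria3* encodes GluA3 and lies on the X chromosome (chrX:41401301-41678601, plus strand, Q/R codon in exon 11 of 16). Its values were 3.05, 5.63, 5.85 and 4.77 FPKM in intact and 4.77, 4.97, 4.75 and 4.43 FPKM in unsorted samples. MACS-sorted samples had 0.504, 1.26, 1.60 and 2.92 FPKM, each below all intact and unsorted samples and with the widest spread, relative to the mean, of the 9 genes in sorted samples. The log2-fold change was −1.75 (SE 0.398, adjusted p = 0.0053). With 1 sample left out it ran from −2.11, without MACS-sorted replicate 4, to −1.34, without MACS-sorted replicate 1, and it was −1.25 after quantile normalization and −1.24 with a pseudocount of 1, with an adjusted p of at most 0.017 under every alternative.

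*Gria2* encodes GluA2, the subunit whose edited form keeps AMPA receptors nearly impermeable to calcium (chr3:80684936-80802791, minus strand, Q/R codon in exon 11 of 16). It measured 3.28, 6.68, 6.95 and 6.58 FPKM in intact and 5.01, 4.97, 6.55 and 5.55 FPKM in unsorted samples. MACS-sorted samples held 3.19, 2.85, 4.69 and 4.48 FPKM. They lay just below the unsorted samples and overlapped the intact ones through intact replicate 1. The mean was 0.689 times that of unsorted samples (log2-fold change −0.55, SE 0.176, adjusted p = 0.028). This call was the least steady of the 8 and was lost under 7 of 18 alternatives, among them median-ratio scaling (adjusted p = 0.052), quantile normalization (adjusted p = 0.14), and the fits without MACS-sorted replicate 1 (adjusted p = 0.068) or 2 (0.060) and without unsorted replicate 3 (0.082) or 4 (0.064).

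*Gria1*, encoding GluA1 (chr11:57011618-57330244, plus strand, Q/R codon in exon 11 of 16), was the member that did not pass. It measured 3.97, 4.18, 4.11 and 4.47 FPKM in intact and 4.38, 4.35, 4.48 and 4.41 FPKM in unsorted samples, a very narrow range. MACS-sorted samples held 6.91, 5.91, 6.17 and 3.87 FPKM, so that 3 of 4 were above all other samples and replicate 4 was below them. The log2-fold change was 0.34 (95% confidence interval −0.03 to 0.70, adjusted p = 0.12), and without MACS-sorted replicate 4 it was 0.51 (adjusted p = 0.0012).

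**Figure D3:**
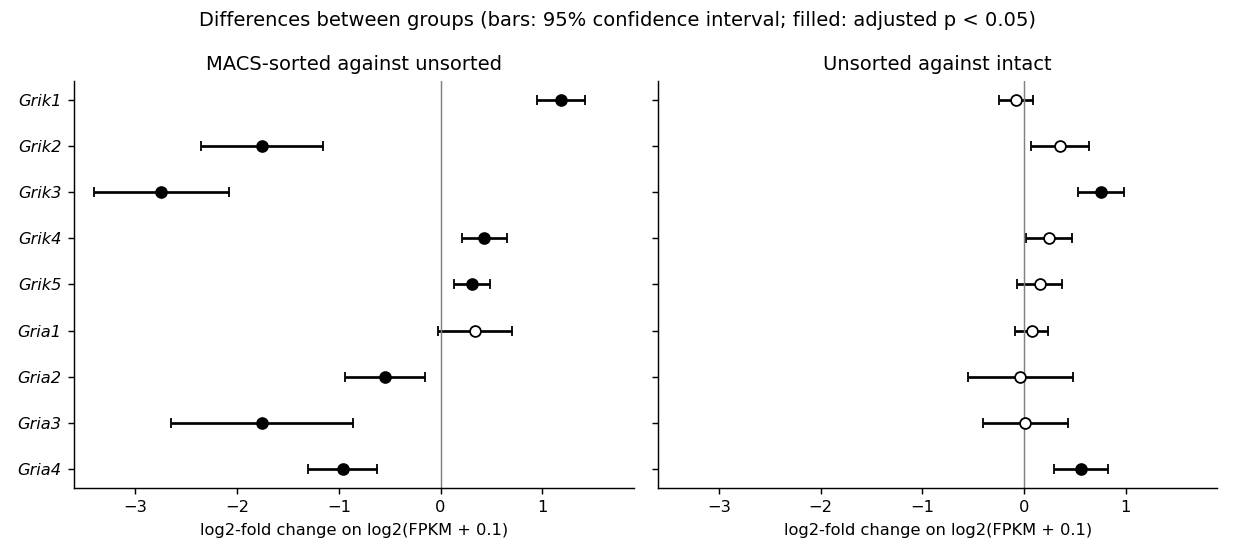
Log2-fold change of the 9 subunit genes on the log2(FPKM + 0.1) scale, MACS-sorted against unsorted DRG on the left and unsorted against intact DRG on the right, with 95% confidence intervals and filled points for an adjusted p under 0.05. On the left 8 of 9 genes are filled, 3 on the positive and 5 on the negative side of 0, and on the right 2 of 9, *Grik3* and *Gria4*, both on the positive side.

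Unsorted and intact DRG, which differ in the dissociation and in the number of mice pooled, differed by the test for 2 members. *Grik3* and *Gria4* rose, 2 of 9, where 22.5% of 12392 genes passed, 14.8% upwards and 7.79% downwards. Markers moved here too, with 4 of 8 pan-neuronal, 5 of 7 large-diameter, 3 of 6 satellite glia and 6 of 6 endothelial markers higher, 2 nociceptor markers higher and 1 lower of 10, 0 of 7 Schwann cell markers past the test, and 7 of 7 fibroblast, 5 of 7 macrophage and 6 of 6 skeletal muscle genes lower, and their part in the result was not tested. *Gria4* also met the fold and level criteria, which 7.04% of genes met (4.29% higher and 2.76% lower). *Grik2* was higher in every unsorted than in every intact sample, yet its log2-fold change of 0.36 did not pass (adjusted p = 0.072). Such a separation in the upward direction held for 3 of the 9 members and for 20.8% of all genes, while 12% separated downwards and 32.8% either way. For *Grik1* the difference was −0.08 (95% confidence interval −0.25 to 0.09), and for *Gria1* 0.07 (−0.09 to 0.23). *Gria2* and *Gria3* were at −0.04 and 0.01 on the log2 scale, with intervals of −0.56 to 0.48 and −0.41 to 0.43 that leave either direction possible. Without intact replicate 1, the sample with skeletal muscle transcripts, *Gria2* was lower in unsorted samples by a log2-fold change of −0.29 (adjusted p = 0.046), and no member met all criteria. The share of all genes that met them without it was not computed.

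MACS-sorted against intact DRG shares its sorted samples with the first comparison. Here 6 of 9 members passed, beside 34.8% of 12234 genes (14.1% higher and 20.6% lower), with *Grik1*, *Grik4* and *Grik5* higher and *Grik2*, *Grik3* and *Gria3* lower. *Grik1* was 2.16 times the intact mean (log2-fold change 1.10, adjusted p = 0.00015). *Grik5* rose by 0.46 on the log2 scale (adjusted p = 0.0076). *Grik2*, *Grik3* and *Gria3* fell by 1.40, 1.99 and 1.74 on the same scale (adjusted p = 0.0054, 0.0013 and 0.012). The remaining AMPA genes did not pass, with *Gria1* at 0.41 (adjusted p = 0.094) and *Gria2* at −0.59 (adjusted p = 0.12). *Grik1* and *Grik4* met all criteria, 2 of 9 beside 18.3% of genes (7.54% higher and 10.7% lower), and without intact replicate 1 the count was 4. The share of all genes that met them without that sample was not computed. The groups did not overlap for the 6 members that passed, as for 37.5% of all genes (15.6% upwards and 21.9% downwards).

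Summed over the family, the 5 kainate genes reached 90.6 to 110 FPKM in intact, 99.6 to 110 FPKM in unsorted and 164 to 225 FPKM in MACS-sorted samples. The 4 AMPA genes reached 22.7 to 35.7, 36.8 to 39.6 and 18.5 to 25.2 FPKM. The sum of the kainate genes was therefore 2.98 to 3.99 times that of the AMPA genes in intact, 2.59 to 2.83 times in unsorted and 6.50 to 12.2 times in MACS-sorted DRG, with no overlap between the groups.

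The kainate sum was mostly *Grik1*. Its share was 79.97% ± 1.89 in MACS-sorted samples, against 71.3% ± 1.23 in intact and 66.0% ± 1.25 in unsorted samples (SD, n = 4 each). In the order intact, unsorted and MACS-sorted, *Grik4* made up 14.1%, 16.5% and 11.8% of the sum and *Grik5* 10.4%, 11.3% and 7.49%. The share of *Grik4* and *Grik5* was thus smaller after sorting although both genes had risen. Their joint FPKM relative to that of *Grik1*, *Grik2* and *Grik3* was 0.225 to 0.280 after sorting, against 0.351 to 0.402 before it and 0.304 to 0.343 in intact DRG. *Grik2* and *Grik3* held 2.84% and 3.40% of the sum in unsorted DRG and 0.452% and 0.250% in MACS-sorted DRG.

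The AMPA sum was more evenly divided. *Gria4* held 61.7% ± 1.28 of it in unsorted samples and 52.2% both in intact (± 1.93) and in MACS-sorted samples (± 5.47, SD, n = 4 each). In the order intact, unsorted and MACS-sorted, the share of *Gria1* was 13.8% ± 2.59, 11.5% ± 0.212 and 24.9% ± 6.996, with 15.4% in MACS-sorted replicate 4 against 25.0% to 31.9% in the other sorted samples. *Gria3* had 15.4%, 12.4% and 6.71%. *Gria2* kept overlapping shares of 14.4% to 20.3%, 13.1% to 16.5% and 12.6% to 19.0% per sample. The shares follow from the levels above and were not tested.

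**Figure D4:**
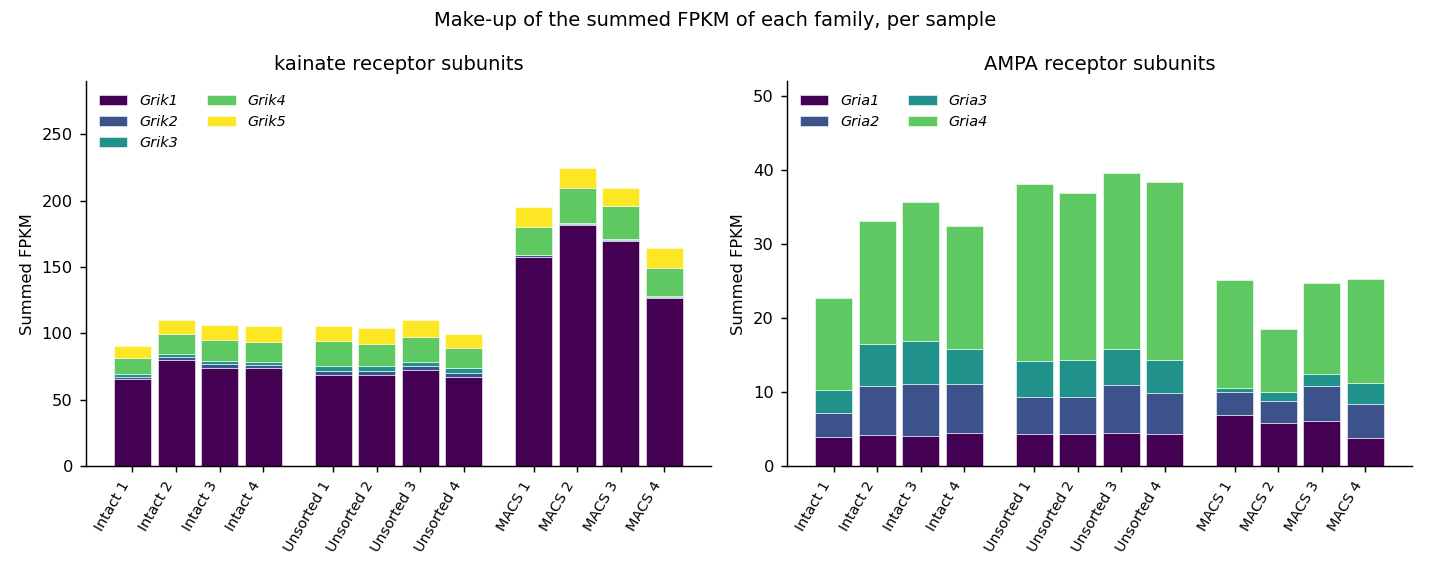
Summed FPKM of the kainate (left) and AMPA (right) subunit genes in each of the 12 samples, with each gene as a coloured segment. The kainate columns are taller in the MACS-sorted samples (164 to 225 FPKM) and mostly *Grik1*, while the AMPA columns are tallest in unsorted samples (36.8 to 39.6 FPKM).

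Ordered by level, *Grik1* came first in every group and was separated from the next gene in every sample. In intact DRG the order was *Grik1*, *Gria4*, *Grik4*, *Grik5*, *Gria2*, *Gria3*, *Gria1*, *Grik2* and *Grik3*, where the ranges of *Gria4* and *Grik4*, of *Gria2*, *Gria3* and *Gria1* in turn, and of *Grik2* and *Grik3* overlapped. Unsorted samples kept this order apart from the last places, which *Grik3* and *Grik2* exchanged, and only the ranges of *Gria2*, *Gria3* and *Gria1* in turn overlapped there. In MACS-sorted samples *Grik4* and *Grik5* stood above *Gria4*, with overlap between *Grik5* and *Gria4*, and from *Gria1* down through *Gria2*, *Gria3*, *Grik2* and *Grik3* each gene overlapped the next.

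The partners of these subunits were read from lists of glutamate genes. Auxiliary subunits bind the receptors and tune their gating and delivery to the membrane. Of 17 listed, 13 were tested, and 1 rose and 6 fell between unsorted and MACS-sorted DRG, where 18.8% of all genes rose and 27.7% fell. *Neto1*, whose product attaches to kainate receptors, was 2.80 to 2.94 FPKM in unsorted and 0.475 to 1.85 FPKM in sorted samples (log2-fold change −1.21, adjusted p = 0.016). *Neto2*, its relative, was 4.84 to 6.76 and 4.75 to 8.18 FPKM, and its difference of 0.02 had a 95% confidence interval of −0.38 to 0.42. The TARP *Cacng4*, which binds AMPA receptors, was 3.02 to 3.51 FPKM in unsorted samples and at most 0.0917 FPKM in MACS-sorted samples, 2 of which list it at 0. Another TARP, *Cacng5*, fell by 1.75 on the log2 scale (adjusted p = 1.9e-05) and *Frrs1l*, which helps to assemble AMPA receptors, by 2.92 (adjusted p = 1.7e-06). The 1 auxiliary subunit that rose was *Cnih2*, the cornichon that slows closing of AMPA channels, singled out after its values were seen. It was 6.86 to 7.30 FPKM in unsorted samples and 11.4 to 20.1 FPKM after sorting (log2-fold change 1.01, adjusted p = 0.00060).

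Proteins that bind, anchor or cluster the receptors went both ways, with 4 of 14 higher and 5 lower, beside 18.8% and 27.7% of all genes. *Nptxr*, the neuronal pentraxin receptor, rose from 15.5 to 17.8 FPKM in unsorted samples to 41.0 to 56.7 FPKM after sorting (log2-fold change 1.48, adjusted p = 5.0e-06). Of the pentraxins it pairs with, *Nptx1* fell by 1.55 (adjusted p = 2.9e-06) and *Nptx2*, named after its values were seen, rose by a log2-fold change of 1.24 (adjusted p = 3.7e-05). *Dlg2*, a scaffold of the synapse, fell by 2.71 (adjusted p = 1.2e-06), and *Grasp*, which encodes the scaffold tamalin, fell by 1.80 (adjusted p = 0.0021). *Grip1*, which binds the tails of GluA2 and GluA3, rose by a log2-fold change of 0.77 (adjusted p = 3.8e-05). *Gripap1*, which binds GRIP1, was at 0.15 (adjusted p = 0.20).

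In MACS-sorted against unsorted DRG, the other glutamate receptors were mostly lower or near absent. Of 9 NMDA and delta genes, 4 were tested and all 4 fell, where 27.7% of all genes fell. *Grin1*, the obligatory NMDA subunit, was 31.5 to 41.2 FPKM in unsorted and 21.5 to 25.6 FPKM in sorted samples (log2-fold change −0.52, adjusted p = 0.0018). *Grin3a*, a glycine-binding NMDA subunit, was at −0.54 (adjusted p = 0.013), and the delta receptor *Grid1* was at −3.56 (adjusted p = 4.7e-06). The 5 genes not tested, which include the 4 GluN2 subunits, had means below 1 FPKM in every group. Among 8 metabotropic receptors, 3 were tested and 2 fell, *Grm4* by 2.82 and *Grm8* by 2.05 on the log2 scale (adjusted p = 2.9e-06 and 8.9e-06). *Grm7* was the most abundant at 20.5 to 21.4 FPKM in unsorted and 17.9 to 30.1 FPKM in MACS-sorted samples, and did not pass (log2-fold change 0.25, adjusted p = 0.18). Against intact DRG it was higher in MACS-sorted samples (0.555, adjusted p = 0.024). There *Grin1* (0.23, adjusted p = 0.33) and *Grin3a* (−0.24, adjusted p = 0.37) did not pass, while *Grid1*, *Grm4* and *Grm8* were lower (adjusted p = 9.8e-05, 0.00019 and 0.0033).

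The genes of RNA editing enzymes did not pass between these groups. *Adarb1*, which encodes ADAR2, measured 9.22 to 11.5 FPKM in unsorted and 9.34 to 12.2 FPKM in MACS-sorted samples, a difference of 0.14 with a 95% confidence interval of −0.10 to 0.39. *Adar* was at 0.08 (−0.12 to 0.27), and *Adarb2* was below the level tested. Against intact samples, with 6.73 to 8.94 FPKM, *Adarb1* was higher in MACS-sorted DRG by a log2-fold change of 0.43 (adjusted p = 0.026), and *Adar* by 0.39 (adjusted p = 0.011).

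Transport genes gave 1 higher and 4 lower of 7 tested, beside 18.8% and 27.7% of all genes. Vesicular transporters load glutamate into vesicles, and of the 3 tested 1 rose, 1 fell and 1 did not pass. *Slc17a8* (VGLUT3) rose from 2.69 to 3.72 FPKM in unsorted to 8.43 to 15.5 FPKM after sorting (log2-fold change 1.93, adjusted p = 4.5e-05). *Slc17a7* (VGLUT1) fell by 3.71 (adjusted p = 1.5e-05), and *Slc17a6* (VGLUT2) was at 0.08 (adjusted p = 0.35). The glial uptake carrier *Slc1a3* fell by 5.19 (adjusted p = 7.2e-07) and the neuronal carrier *Slc1a1* by 2.09 (adjusted p = 0.00087). *Slc1a3* is also on the satellite glia list. In unsorted against intact DRG the same lists gave, higher and lower, 6 and 0 of 13 auxiliary, 4 and 0 of 14 binding, 3 and 0 of 4 NMDA and delta, 3 and 0 of 3 metabotropic, 1 and 0 of 2 editing and 3 and 1 of 7 transport genes, beside 14.8% and 7.79% of all genes. In MACS-sorted against intact DRG they gave 3 and 4 of 11, 4 and 5 of 14, 0 and 1 of 3, 1 and 2 of 3, 2 and 0 of 2 and 1 and 2 of 6, beside 14.1% and 20.6% of all genes.

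**Figure D5:**
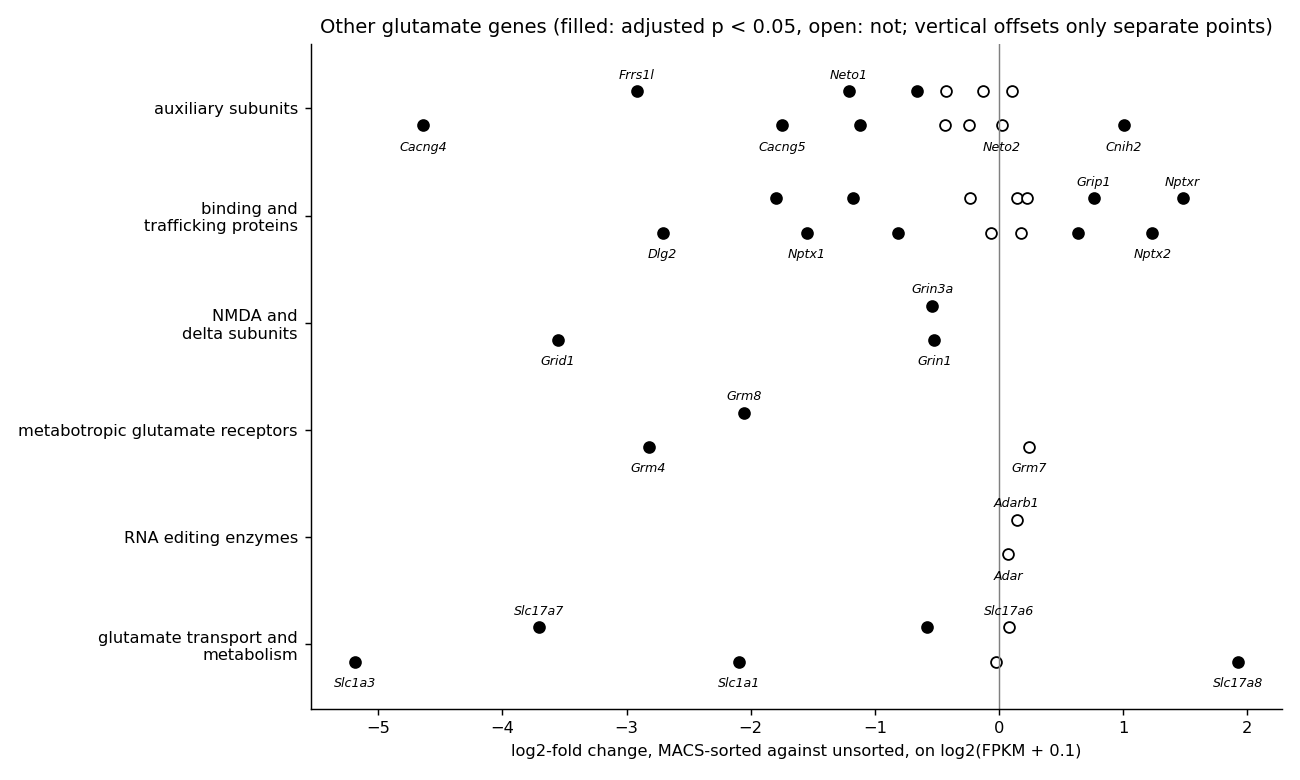
Change on the log2(FPKM + 0.1) scale, MACS-sorted against unsorted DRG, of other glutamate genes tested, by list, with filled points for an adjusted p under 0.05. More filled points lie left of 0 than right of it, the NMDA and delta genes shown are all on the left, and *Slc17a8* and *Nptxr* lie farthest right.

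Finally, the genes whose level ran most nearly parallel to each member over the 12 samples were found by Pearson correlation of log2(FPKM + 0.1) among 12253 genes. These are descriptions, since the 12 points share 3 preparations. For *Grik1* they were *Eml1*, *Dapk1* and *Pstpip2* (r = 0.994, 0.994 and 0.992), and *Eml1*, for example, averaged 128, 126 and 246 FPKM in intact, unsorted and MACS-sorted DRG. *Grik4* ran with *Uck2*, *Wipf3* and *Apba1* (r = 0.979 to 0.972), and *Grik5* with *Gas2l1*, *Map1s* and *Atp13a2* (r = 0.981 to 0.980). For *Grik2* the nearest were *Slc16a6*, *Ankrd34c* and *Ano1* (r = 0.989 to 0.985), and for *Grik3* they were *Cbln2*, *Chn2* and *Bai3* (r = 0.991 to 0.987). Among the AMPA genes the nearest were *Epha4*, *Spire1* and *Whrn* for *Gria4* (r = 0.967 to 0.961), *E330009J07Rik*, *Rassf8* and *Nmt2* for *Gria3* (0.973 to 0.970), *Pikfyve* and *Dhx33* for *Gria2* (0.949 and 0.931) and *Man1c1*, *Rgs7* and *Chrna6* for *Gria1* (0.962 to 0.942).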

How the data were processed

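Reads of polyA-selected RNA were mapped by the authors with TopHat2 (mm10), lanes were joined with SAMtools, and expression was estimated with Cufflinks 2.1.1. The deposited FPKM values were used without rescaling. Totals of mapped fragments were estimated here from the spacing of low FPKM values with a fragment length of 150 bases assumed, so no interval was drawn from them. The 269 symbols that stand on several rows (770 rows) were not used for lists.

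Groups were taken from the sample titles. Tests used limma (3.58.1, with R 4.3.3) and an intensity trend on log2(FPKM + 0.1), a scale that understates changes of low genes. Only the 8 samples compared entered a fit, genes averaging less than 1 FPKM there were left out, tests were two-sided, and p-values were adjusted by Benjamini-Hochberg over all genes tested. CuffDiff, which the study used, needs the aligned reads. Errors are SD over samples that the series describes as biological replicates. Simulated data, with both groups drawn from the means and SDs of unsorted samples, were also tested. The procedure recovered 91.5% of 200 genes changed by 1 on the log2 scale and called 8 of 11904 unchanged genes. Genes nearest the lowest level tested were not among those changed. The spread of MACS-sorted samples did not enter, so these rates do not carry over to comparisons with them.

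The members and lists were chosen with earlier results of these data known. All 9 members are named, and of each list the genes set by name and up to 4 with the largest change among those that passed in MACS-sorted against unsorted DRG. The alternatives were pseudocounts of 1 and 0.01, other filters, scalings, fits and limits, a block for the replicate number, averaging of unsorted replicates 1 and 2, and leaving out each sample. Some genes that this rule names are not reported here. The skeletal muscle list was written after its values were seen. Exons of other annotated genes overlap exons of *Grik4*, *Gria2*, *Gria3* and *Gria4* on the same strand.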

Additional observations from a re-analysis of the deposited data

Results flagged for a closer look

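Among 27 sets of 4 samples, 9 members in each of 3 groups, 1 sample stood apart from the rest of its group by Dixon's criterion, which chance alone exceeds in about 1 of 20 sets. *Gria2* measured 3.279 FPKM in intact replicate 1, against 6.58 to 6.95 FPKM in the other 3 intact samples. The same sample had a summed FPKM of 2745 over the skeletal muscle list, and the part of this in the value of *Gria2* was not tested.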

How the results depend on the processing

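In the comparisons with MACS-sorted DRG, the direction of all 9 members was kept under every alternative run, whether unsorted or intact samples were the reference. In unsorted against intact DRG, values near 0 changed sign. *Gria2* went from −0.038 to 0.007 with unsorted replicates 1 and 2 averaged and ran from −0.292 to 0.062 with 1 sample left out, and *Gria3* went from 0.013 to −0.001 and ran from −0.188 to 0.118. The number of members that passed the adjusted p, 8, 2 and 6 in MACS-sorted against unsorted, unsorted against intact and MACS-sorted against intact DRG, became 4, 1 and 3 with a mean of at least 5 FPKM required, which tests fewer members. Those still tested were *Grik1*, *Grik4*, *Grik5* and *Gria4*, with *Gria1* added in the first comparison and *Gria2* in the second. Of all genes, 8128, 8406 and 8176 were tested at that limit, where 1759, 1569 and 1450 were higher and 2092, 514 and 1257 lower. The number of members that passed ran from 7 to 9, from 2 to 3 and from 6 to 8 with 1 sample left out, and a fit on all 12 samples gave 1 in unsorted against intact DRG. With 1 sample left out, 1856 to 2568 of all genes were higher and 2825 to 3499 lower in MACS-sorted against unsorted DRG. These ranges were 1052 to 2724 and 498 to 1666 in unsorted against intact DRG. They were 1279 to 2058 and 2032 to 2623 in MACS-sorted against intact DRG. The fit on all 12 samples had 1178 genes higher and 541 lower in unsorted against intact DRG. The number past all criteria, 3, 1 and 2, became 1, 0 and 1 with a log2 ratio beyond 1 and 6, 2 and 5 with a mean above 1 FPKM. The share of all genes past all criteria was computed only as deposited, so under an alternative this number has no such share beside it. The number of members past all criteria ran from 2 to 4, 0 to 1 and 2 to 4 with 1 sample left out, and quantile normalization gave 0 in unsorted against intact and 4 in MACS-sorted against intact DRG, where the share of higher genes went from 40.6% to 60.3% and the median of all genes moved by 0.17. In that comparison quantile normalization took *Grik3* to −1.15 and *Gria3* to −1.18, *Grik2* did not pass after it (−0.63, adjusted p = 0.071), and *Gria1* passed (0.68, adjusted p = 0.014), in the fit on all 12 samples (0.41, adjusted p = 0.037) and without MACS-sorted replicate 4 (0.59, adjusted p = 0.0032). Without intact replicate 1, *Gria2* passed as well (−0.84, adjusted p = 0.0075). *Gria1* also passed in MACS-sorted against unsorted DRG after quantile normalization (0.53, adjusted p = 0.022). The cause of these shifts was not tested. The fit with a replicate block gave 8, 2 and 6 members and changed no call of a member. In it 2073, 1439 and 1353 of all genes were higher and 3098, 848 and 2235 lower. Samples with the same number did not deviate together (correlations of −0.143 to 0.067), so the numbers were not taken as pairs, and 1 of 4 samples correlated best with its own number in MACS-sorted against unsorted DRG and 0 of 4 in the others. Ranking genes of like pattern by Spearman correlation shared only *Ano1* and *Map1s* with those named. At 13.6 to 19.2 fragments per kilobase for 1 FPKM, the lowest samples of *Grik2*, *Grik3* and *Gria3* held an estimated 7.4, 2.6 and 6.9 fragments per kilobase. The part of depth in the spread of these genes was not tested.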
